A study of Mus musculus with 22 samples.

Results

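The clustered core histone genes were examined in white fat of bone marrow chimeras. A gene belonged to the family when its array symbol began with H2ac, H2bc, H3c or H4c followed by a number, which gave 49 of the 19337 genes: 13 H2A, 15 H2B, 10 H3 and 11 H4 genes. The rule reads symbols and no values, but the family was selected on results of these same arrays, so every count below describes it and none is independent evidence about it. Gene expression had been measured with Affymetrix whole-transcript arrays in 22 samples of fat from male C57BL/6J mice. Marrow from Gipr-/-S100a9-/- donors (double-knockout marrow), Gipr-/- donors or wild-type (WT) donors had 6 weeks to reconstitute before the mice ate, for 14 weeks, a high-fat diet in which fat supplied 60% of calories. Gipr encodes the receptor of the incretin hormone GIP and S100a9 a calcium-binding protein of myeloid cells. Inguinal subcutaneous fat (ingWAT) gave 3 arrays with double-knockout marrow, 3 with Gipr-/- marrow and 4 with WT marrow, and epididymal fat (epiWAT) gave 4 of each. Recipients of Gipr-/- and WT marrow were WT, and the sources used here give neither the recipient of double-knockout marrow nor the age of the mice. The diet and the transplant were common to all groups, and the null alleles were in the transplanted cells, so the fat cells of WT recipients carried neither. Nothing in the labels states that the arrays came from separate mice, so the p-values reflect the spread among the arrays, which may be technical.

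Core histones form the protein spool around which DNA is wound: pairs of H2A, H2B, H3 and H4 make up a nucleosome. Most of their genes lie in clusters without introns, are transcribed mainly while DNA is copied in S phase, and make mRNAs that end in a stem-loop in place of a poly(A) tail. Slbp, the stem-loop binding protein, and Npat, a transcriptional coactivator at the histone clusters, serve this family. Mature adipocytes do not divide, whereas precursor cells, endothelial cells and immune cells of fat can.

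The promoters of called H4, H3 and H2B genes are shown because the histone types moved differently in inguinal fat. Each of the first 4 sequences is the 120 bases before the annotated start, 5′ to 3′ on the gene's strand, from RefSeq on GRCm38.p6. Capitals mark 4 motifs, each searched on both strands. The letters TATAAA stand for a TATA box. A CCAAT box is marked by its own letters. The octamer, a site known from H2B promoters, reads ATTTGCAT. The element GGTCCG is known from H4 promoters. H4c4 lies on the plus strand (chr13:23581448-23581567), H4c6 on the minus strand (chr13:23551669-23551788), H3c6 on the minus strand (chr13:23562386-23562505) and H2bc8 on the plus strand (chr13:23571280-23571399).
H4c4: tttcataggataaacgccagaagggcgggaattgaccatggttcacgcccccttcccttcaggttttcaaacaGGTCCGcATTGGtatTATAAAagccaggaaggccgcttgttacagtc
H4c6: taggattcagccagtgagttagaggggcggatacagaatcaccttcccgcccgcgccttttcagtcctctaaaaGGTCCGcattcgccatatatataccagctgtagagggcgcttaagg
H3c6: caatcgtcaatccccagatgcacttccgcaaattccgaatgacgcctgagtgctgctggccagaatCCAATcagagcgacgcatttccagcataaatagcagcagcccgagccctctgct
H2bc8: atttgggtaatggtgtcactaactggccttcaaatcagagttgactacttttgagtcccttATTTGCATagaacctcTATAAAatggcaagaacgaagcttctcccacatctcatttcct

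Promoter windows of 250 bases before and 50 bases after the start were matched for 44 of the 49 genes, and H3c7, H2bc21, H2bc4, H3c1 and H4c14 are named only. GGTCCG, a motif chosen after the H4 sequences had been read, was found in 9 of 10 H4 windows, 0 of 13 H2A, 1 of 13 H2B and 1 of 8 H3 windows, against 8.25% of all 32851 windows. The octamer stood in 6 of 13 H2A windows, 6 of 13 H2B windows, 0 H3 windows and 0 H4 windows, against 1.74% of all. CCAAT was present in all 34 H2A, H2B and H3 windows and in 3 of 10 H4 windows, against 37.4% of all. H2ac1 and H2bc1 lie 280 bases apart, so their windows share bases. Other H2A and H2B genes lie as close, such as H2ac8 and H2bc8. A motif may thus be counted for both types, and the windows are not all separate stretches. TATAAA was found in 25 of the 44 windows, or 56.8%, against 13.6% of all. No searched motif overlapped another in the sequences printed here. The H4 windows thus differed in letters from those of the other types, and a match is a description, not a binding site.

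Of the 49 genes, 41 lie on chromosome 13 and 8 on chromosome 3. Genes in the lowest 25% by mean value were left out of each fit, which removed H3c1, an H3 gene with a mean log2 value of 3.36, and kept 48 genes. H2ac21, an H2A gene, was the lowest kept, at 5.45. H3c14 and H3c15, both H3 genes, had identical values in all 22 arrays and are 1 measurement. Both stay in every count, mean, median and correlation below, so H3 tallies hold that measurement more than once. Many core histone genes encode the same or nearly the same protein, so a feature may read more than 1 of them, and a call on 1 gene is less certain than a call on its type. The values are signals of different probe sets with no length scale, so levels were not compared between genes.

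The arrays differed in the other cells they held, and these values touch the results below. B and T cell markers were high in inguinal double-knockout arrays 1 and 3 and not in array 2. Skeletal muscle markers varied by array in all 3 inguinal groups, and testis markers varied in epididymal fat. Adipoq, the adipocyte hormone adiponectin, was high on every array, with log2 values between 18.00 and 19.40. The mature adipocyte list that holds it was less even. Centred in the same way, its mean was -1.71 in epididymal double-knockout array 1 and -0.695 in epididymal Gipr-/- array 1. It was 0.42 in epididymal double-knockout array 4 and 0.03 to 0.32 in the inguinal arrays. Gipr and S100a9 lay between 4.01 and 6.10 and between 4.56 and 6.98, low signals that check the marrow genotype in fat only weakly. Over all genes, r between 2 arrays of the same group was 0.911 to 0.984.

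In inguinal fat, double-knockout marrow went with higher core histone signal than Gipr-/- marrow, and this was clearest for H4. With limma and Benjamini-Hochberg adjustment over all 14502 genes tested, 12 of 48 histone genes were higher and 0 were lower, where 0.834% of all genes were called higher. The 12 comprised 9 of 11 H4 genes, 1 of 9 H3 genes, 2 of 15 H2B genes and 0 of 13 H2A genes. The median log2 difference over the 48 genes was 0.84, against -0.03 over all genes tested, and 42 of 48 were positive. All double-knockout arrays lay above all Gipr-/- arrays for 28 of the 48 genes, including 11 of 11 H4 genes, where 8.35% of all genes did so. The number called was 3 without Gipr-/- array 2 and 4 without double-knockout array 1, and the median was 0.513 without double-knockout array 2.

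The H4 genes were high in all 3 inguinal arrays with double-knockout marrow. H4c6 had log2 values of 11.64, 10.86 and 11.53 in double-knockout arrays, 8.94, 8.72 and 8.87 in Gipr-/- arrays and 9.59, 10.36, 9.15 and 8.70 in WT arrays. The 3 double-knockout arrays stood above all others, and the Gipr-/- and WT arrays overlapped. The difference from Gipr-/- was 2.503 ± 0.38 (SE, n = 3 each; limma adjusted p = 0.00817). H4c14, the H4 gene on chromosome 3, had 11.72, 11.53 and 11.65 in double-knockout arrays, 9.89, 9.31 and 9.98 in Gipr-/- arrays and 10.76, 10.97, 11.09 and 10.52 in WT arrays. Here the 3 groups did not overlap, with WT between the other two. The difference from Gipr-/- was 1.905 ± 0.25 (SE; limma adjusted p = 0.00529), the lowest adjusted p of the family.

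H4c4, whose promoter is printed above, had 13.47, 13.04 and 13.23 in double-knockout arrays, 10.89, 11.37 and 11.81 in Gipr-/- arrays and 11.46, 11.86, 11.43 and 11.68 in WT arrays. No Gipr-/- or WT array reached the lowest double-knockout array. Its difference from Gipr-/- was 1.89 ± 0.26 (SE; limma adjusted p = 0.00644). The other called H4 genes rose by 1.39 (H4c2) to 2.03 (H4c3), with H4c18 at 2.03, H4c12 at 1.79, H4c1 at 1.73 and H4c11 at 1.45, all as log2 differences. H4c8 and H4c9 were 0.94 and 0.69 higher and did not pass the test.

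**Figure D1:**
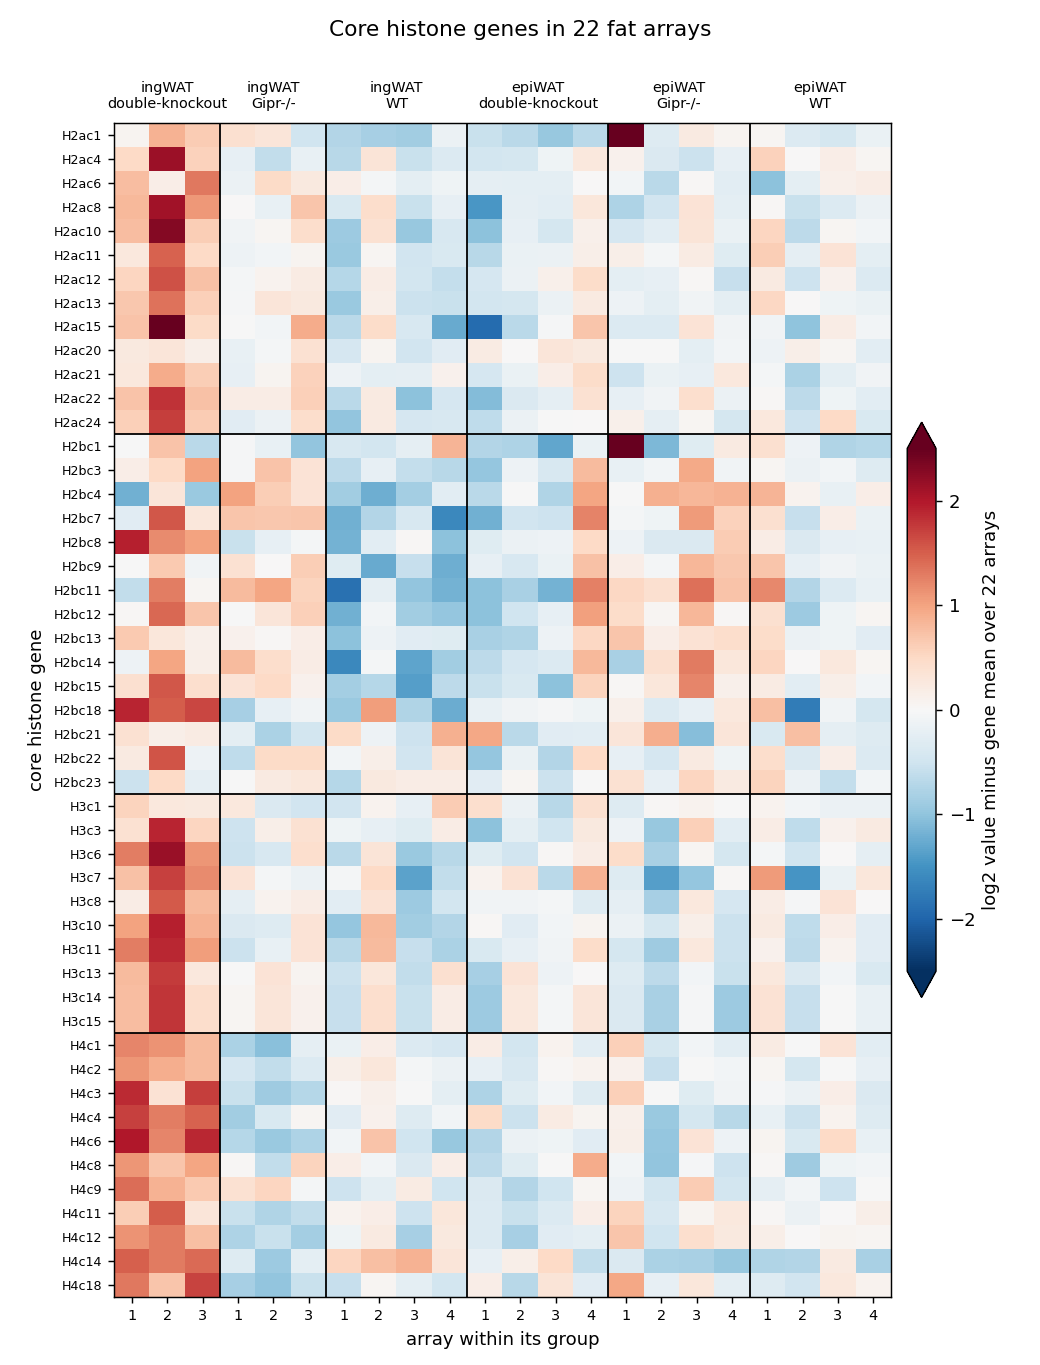
The 49 core histone genes (rows, by type) in the 22 arrays (columns, by depot and marrow), as log2 value minus the gene's mean over all arrays. H4 genes are red in all 3 inguinal double-knockout arrays, H2A and H3 genes most of all in array 2, and H2ac1 and H2bc1 in 1 epididymal Gipr-/- array.

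Outside H4, 3 genes passed against Gipr-/- marrow. H3c6, an H3 gene, had 10.82, 11.69 and 10.65 in double-knockout arrays, against 8.99, 9.13 and 9.95 in Gipr-/- arrays, a difference of 1.69 ± 0.40 (SE; limma adjusted p = 0.0414). H2bc8 had 8.22, 7.45 and 7.28 in double-knockout arrays, against 5.71, 6.07 and 6.22 in Gipr-/- arrays, a difference of 1.65 ± 0.39 (SE; limma adjusted p = 0.0427). H2bc18, on chromosome 3, differed by 2.06 ± 0.51 (SE; limma adjusted p = 0.0472). In all 3 genes the groups did not overlap. Median log2 differences by type were 1.79 for H4, 0.93 for H3, 0.79 for H2A and 0.25 for H2B. The 15 H2B genes did not move as one: 9 were positive and 6 negative, down to -1.27 for H2bc4 (limma adjusted p = 0.0884).

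**Figure D2:**
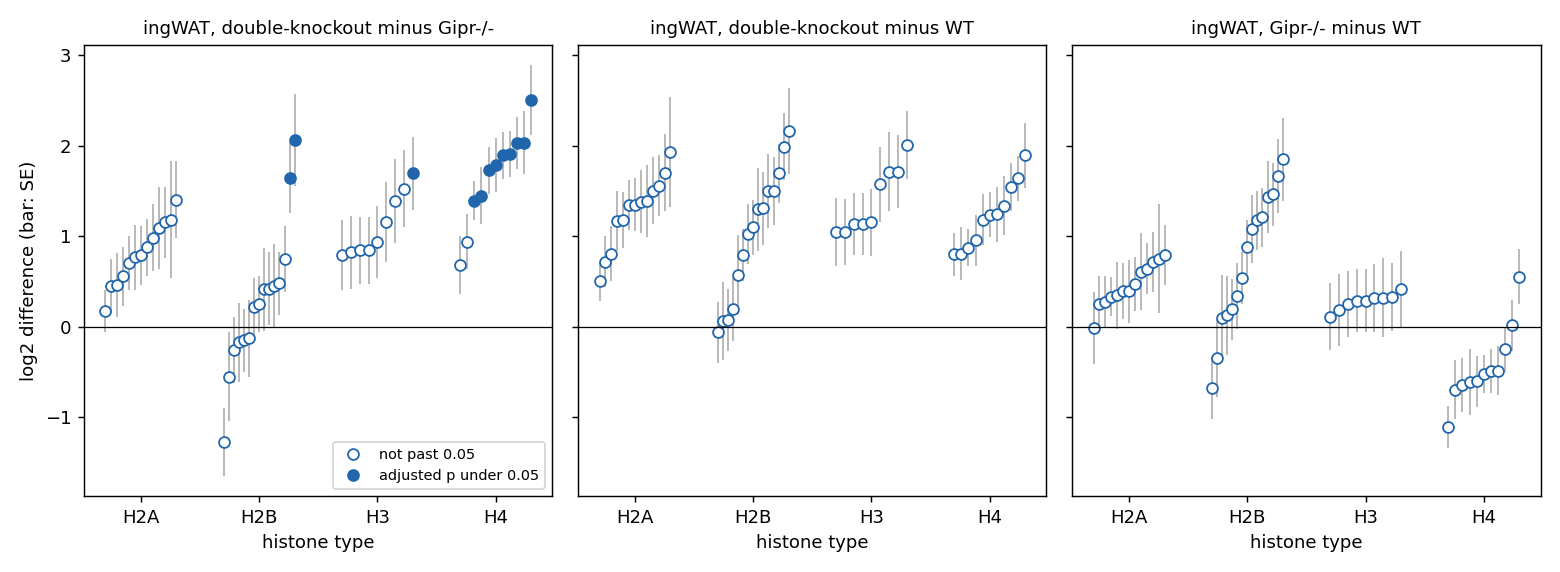
Log2 differences (points; bars are SE) of the 48 tested genes by type in inguinal fat, for double-knockout minus Gipr-/-, double-knockout minus WT and Gipr-/- minus WT. Filled points passed an adjusted p of 0.05; 9 of the 12 filled points are H4 genes.

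The types also differed in how the 3 inguinal double-knockout arrays were ordered. Averaged over the 11 H4 genes, each centred on its mean over 22 arrays, the log2 values were 1.36, 1.03 and 1.14 in double-knockout arrays 1 to 3, -0.49, -0.65 and -0.34 in Gipr-/- arrays and -0.07, 0.21, -0.19 and -0.16 in WT arrays. For H3 the same mean was 0.80, 1.83 and 0.74 in double-knockout arrays, and for H2A it was 0.53, 1.53 and 0.67. H4 was thus similar in the 3 arrays, while H3 and H2A were highest in array 2. In double-knockout arrays 1 to 3, 41, 48 and 43 of the 48 genes lay above their own mean, against 15, 24 and 32 with Gipr-/- marrow, against 7, 30, 4 and 13 with WT marrow.

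**Figure D3:**
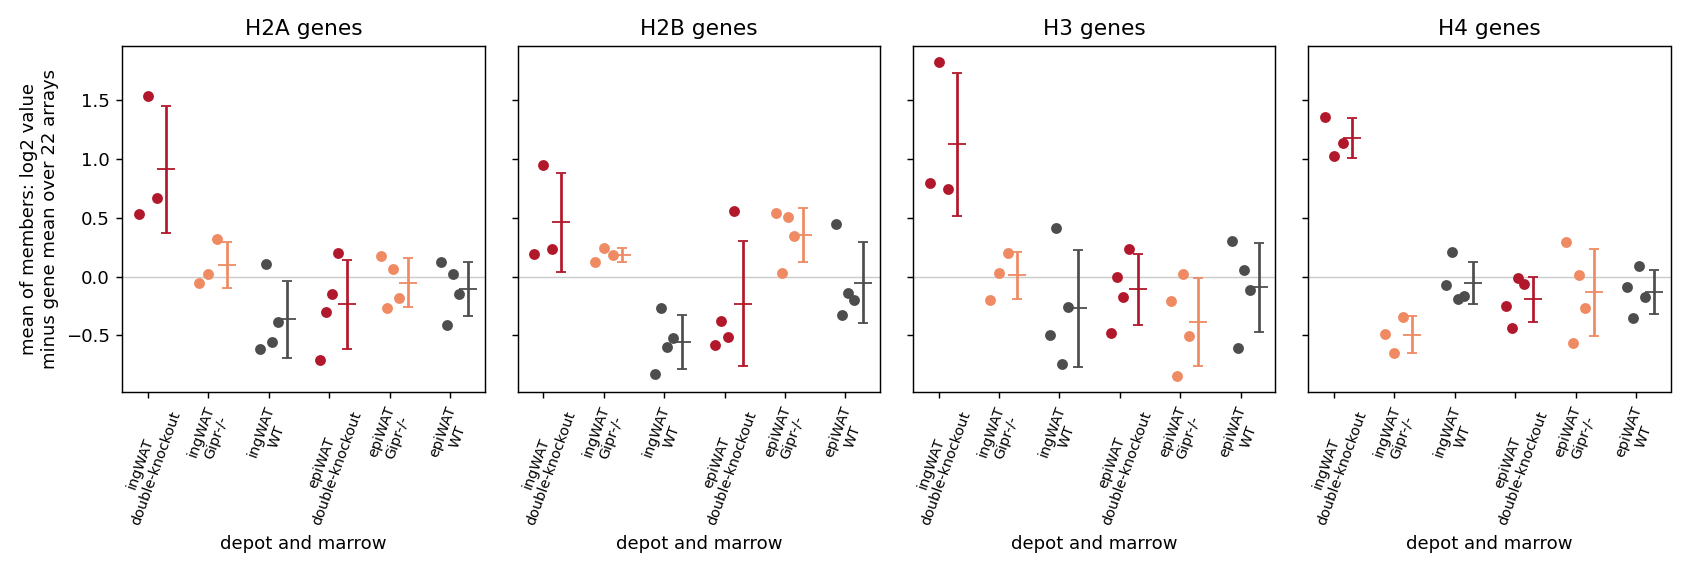
Mean of the genes of each type (log2 value minus gene mean over 22 arrays) in each array (points), with group mean and SD beside them. Inguinal double-knockout arrays lie between 1.03 and 1.36 for H4, above every other array.

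The B and T cell marker lists moved with part of this pattern. Averaged over the list and centred in the same way, B cell markers stood at 3.64, -1.08 and 3.41 in inguinal double-knockout arrays 1 to 3 and between -1.08 and -0.62 in the other 7 inguinal arrays. T cell markers stood at 4.16, -0.69 and 4.12 in double-knockout arrays and between -0.95 and 0.02 in the others. All 8 tested B cell markers and all 8 tested T cell markers were higher than with Gipr-/- marrow in value, but 0 and 1 of them passed, the 1 being Cd3g, a chain of the T cell receptor complex. The lymphoid chemokine gene Ccl21a, named after its values were seen, had log2 values of 14.52, 7.63 and 15.13 in double-knockout arrays and 6.08 to 7.94 in the other inguinal arrays. Macrophage markers ran lower, with 2 of 11 called lower: Mrc1, a mannose receptor, by -1.68 and Mertk, a receptor for dying cells, by -1.76. Array 2, without the lymphocyte signal, had an H4 mean of 1.03 and the highest H2A, H2B and H3 means of all 22 arrays. With array 2 as the only double-knockout array, assumed to vary like the other groups, the median difference from Gipr-/- was 1.49 and 0 of 48 genes passed (limma). The H4 differences were then 0.58 to 2.15. In bulk fat, a change in the share of a cell type and a change in RNA per cell cannot be told apart.

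**Figure D4:**
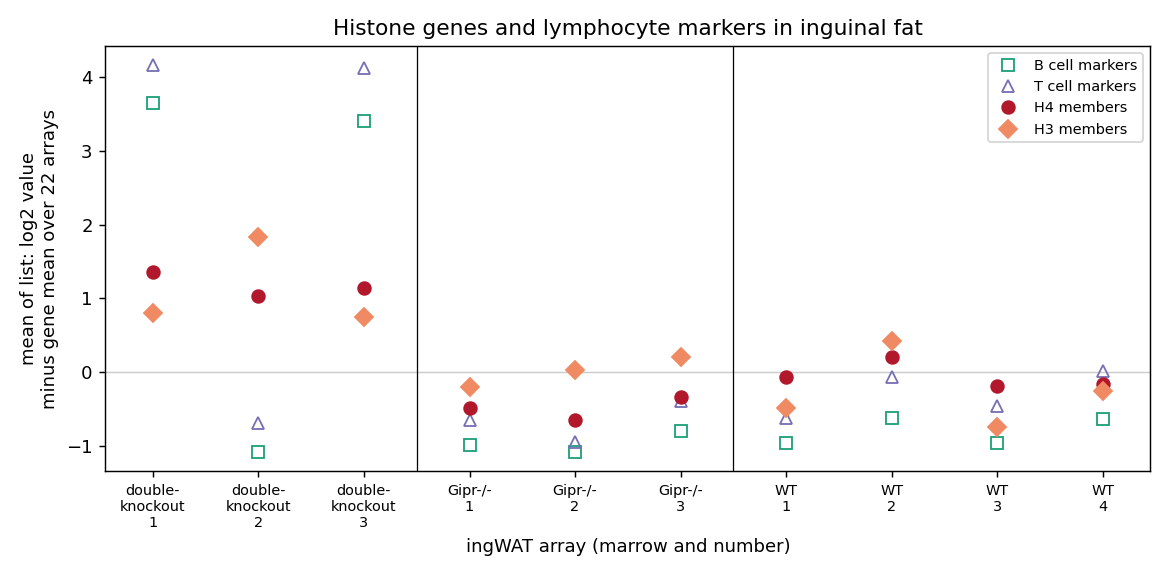
Means of B cell markers, T cell markers, H4 genes and H3 genes (log2 value minus gene mean over 22 arrays) in the 10 inguinal arrays. Lymphocyte markers exceed 3 in double-knockout arrays 1 and 3 only, whereas H4 is above 1 in all 3 double-knockout arrays.

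In this comparison, no gene of 6 further lists on chromatin and the cell cycle passed the test. Among linker histones, which bind DNA between nucleosomes, 0 of 5 passed and the median was 0.83, with H1f1 at 1.32 and H1f5 at 1.07. Among replacement core histones, which can also be made outside S phase, 0 of 8 passed and the median was 0.56, with H2az2 at 1.07 and H3f3a at 0.92. Of the genes that transcribe and process histone mRNA, 0 of 19 passed and the median was 0.19, with Ncbp1, a cap-binding protein, at -1.06. Slbp stood at 0.42 and Npat at -0.49. Histone chaperones had 0 of 13 called and a median of -0.04, with the chaperone subunit gene Rbbp4 at 0.95. DNA replication genes had 0 of 23 called and a median of 0.24, with the replication licensing factor Cdt1 at 1.004. Mitosis genes had 0 of 12 called and a median of 0.13, with the kinetochore gene Spc25 at -1.14. Apart from Slbp and Npat, the genes named from these 6 lists are those furthest from 0. In the order given, 4 of 5, 7 of 8, 12 of 19, 6 of 13, 16 of 23 and 7 of 12 genes were positive. Ribosomal protein genes, a list added after the data had been seen, had 34 of 61 called higher and a median of 1.31. Their mean was 0.65, 0.54 and 0.70 in the 3 double-knockout arrays, -0.55, -0.73 and -0.41 in Gipr-/- arrays and -0.58 to -0.11 in WT arrays. Of the remaining lists, testis histone and sperm chromatin genes (0 of 5), testis germ cell markers (0 of 4), epididymis markers (0 of 5), erythroid and marrow precursor markers (0 of 4) and skeletal muscle markers (0 of 8) had no call. Mature adipocyte markers had 1 of 9 called higher and 1 called lower. The part of any of these in the histone values was not tested.

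Against WT marrow, the whole family leaned higher in double-knockout inguinal fat, and no gene passed. With limma, 47 of 48 genes were positive, 43 had an unadjusted p under 0.05 and 0 passed after adjustment, where 0% of all genes passed. The median was 1.24, against -0.01 over all genes tested, and 1958 of the 14502 genes had an unadjusted p under 0.05. By type the medians were 1.35 for H2A, 1.10 for H2B, 1.15 for H3 and 1.24 for H4. The double-knockout arrays lay above all WT arrays for 38 genes, including 11 of 11 H4, 12 of 13 H2A, 7 of 9 H3 and 8 of 15 H2B genes, where 5.08% of all genes did so. The lean was not confined to histones: 59 of 61 ribosomal protein genes were positive and 0 were called (median 1.057). All 8 tested B cell and all 8 tested T cell markers were positive, with medians of 2.995 and 3.1. Macrophage markers were positive in 2 of 11 and skeletal muscle markers in 0 of 8, with medians of -0.81 and -2.28. The part of these genes in the histone values was not tested.

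The largest differences from WT were in H2bc18 (2.16 ± 0.47, SE; limma adjusted p = 0.0973), H3c6 (2.01 ± 0.37; 0.0736) and H2bc8 (1.99 ± 0.37; 0.0736). H2bc18 had 9.43, 9.05 and 9.20 in double-knockout arrays, 6.71, 7.33 and 7.45 in Gipr-/- arrays and 6.62, 8.58, 6.79 and 6.29 in WT arrays. WT array 2 was high for its group, and all double-knockout arrays were above it. H2ac15, an H2A gene, followed double-knockout array 2: it had 9.96, 12.43 and 9.72 in double-knockout arrays and 8.57, 9.70, 8.83 and 7.99 in WT arrays. H4c4 had the lowest adjusted p of the family, 0.0614 with limma, at a difference of 1.64. The 3 tested genes nearest 0 or below it were H2bc23 (-0.06), H2bc1 (0.07) and H2bc21 (0.07). The count was 9 without double-knockout array 2, 1 without WT array 2, and 19 with all 22 arrays in 1 fit. The share of all genes called under these settings is not given here, so the counts are not set against a background.

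With Gipr-/- marrow, H2B genes were mostly above and H4 genes mostly below their WT values in inguinal fat, and no histone gene passed. With limma, 0 of 48 passed where 0.234% of all genes passed, and 12 of 48 had an unadjusted p under 0.05, as did 2180 of the 14502 genes. The H2B median was 0.88 and the H4 median -0.52, with H2A at 0.39 and H3 at 0.29, against 0.03 over all genes tested. The Gipr-/- arrays lay above all WT arrays for 9 genes, all H2B, and below all WT arrays for 4 genes, all H4, where 10.2% of all genes lay above and 5.15% below. H2bc11 had 8.83, 9.02 and 8.59 in Gipr-/- arrays, against 6.16, 7.81, 7.05 and 6.84 in WT arrays, a difference of 1.85 ± 0.46 (SE; limma adjusted p = 0.0915). H2bc7 had 10.02, 10.02 and 10.03 in Gipr-/- arrays, against 8.14, 8.61, 8.94 and 7.73 in WT arrays, a difference of 1.67 ± 0.41 (SE; limma adjusted p = 0.0872). H2bc14 was 1.43 higher. H4c14 was 1.11 ± 0.24 (SE) lower, a log2 difference of -1.11 with a limma adjusted p of 0.062. Skeletal muscle markers were also lower in value with Gipr-/- marrow (8 of 8 negative, median -4.76, 0 called), and their part was not tested. This comparison shares its Gipr-/- and WT arrays with the comparisons above. The count was 5 without double-knockout array 2, which enters the fit through the shared spread.

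H2bc4, an H2B gene, had its highest inguinal values with Gipr-/- marrow, as did H2bc7, H2bc9, H2bc11, H2bc14 and H2bc23 by group mean. RefSeq gives it a length of 8282 bases, and H2bc22, H2bc23 and H2bc21 are also long, at 14079, 3788 and 2667 bases. In inguinal fat it had log2 values of 13.48, 14.98 and 13.75 with double-knockout marrow, 15.69, 15.31 and 15.02 with Gipr-/- marrow, against 13.82, 13.45, 13.83 and 14.42 with WT marrow. The Gipr-/- arrays were above all others in this depot, and the double-knockout and WT arrays overlapped. Gipr-/- exceeded WT by 1.46 ± 0.35 (SE; limma adjusted p = 0.0834). In epididymal fat it had 14.01, 14.68, 13.94 and 15.67 with double-knockout marrow, 14.67, 15.58, 15.51 and 15.56 with Gipr-/- marrow, against 15.54, 14.77, 14.50 and 14.85 with WT marrow, and the groups overlapped. Across the 12 epididymal arrays, the H2B genes most like it were H2bc11 (Pearson r = 0.883), H2bc15 (0.803) and H2bc7 (0.797). Across the 10 inguinal arrays, H2bc11 was again the most like it (r = 0.701), while H2bc18, H2bc8 and H2bc21 ran against it (-0.366, -0.24 and -0.412). These correlations describe arrays that share group differences.

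In epididymal fat the marrow genotype moved no core histone gene past the test. For double-knockout minus Gipr-/- marrow, limma called 0 of 48 genes (0% of all genes) and 5 had an unadjusted p under 0.05, as did 1555 of the 14502 genes, with a median of -0.17 against -0.00 over all genes tested. For double-knockout minus WT marrow it called 0 (0% of all genes), 0 had an unadjusted p under 0.05, and the median was -0.15 against -0.02. For Gipr-/- minus WT marrow it called 0 (0% of all genes), 0 had an unadjusted p under 0.05, and the median was 0.01 against -0.02. H4c6 had 8.90, 9.50, 9.53 and 9.35 in double-knockout arrays, 9.79, 8.69, 9.99 and 9.51 in Gipr-/- arrays and 9.72, 9.26, 10.15 and 9.46 in WT arrays. The 3 groups overlapped. H4 means by array ranged from -0.44 to -0.02 with double-knockout marrow, against -0.57 to 0.29 with Gipr-/- marrow and -0.35 to 0.09 with WT marrow. By type, double-knockout minus Gipr-/- medians were -0.45 for H2B (14 of 15 negative) and 0.25 for H3 (8 of 9 positive), and Gipr-/- minus WT medians were 0.35 for H2B (14 of 15 positive) and -0.26 for H3 (9 of 9 negative). The medians over 48 genes were small enough that leaving out 1 array moved them by over 1.5 times in all 3 comparisons, down to -0.021 without double-knockout array 1 in the first.

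Set against epididymal fat, inguinal fat had higher core histone signal with double-knockout marrow. Limma called 21 of 48 genes higher and 0 lower, where 1.71% of all genes were called higher. The called genes were 10 of 11 H4, 6 of 13 H2A, 3 of 9 H3 and 2 of 15 H2B genes. The median was 1.09, against -0.02 over all genes tested, and the inguinal arrays lay above all epididymal arrays for 29 genes, where 6.57% of all genes did so. H4c6 rose by 2.02 ± 0.35 (SE, n = 3 and 4; limma adjusted p = 0.00485), H4c3 by 1.68 ± 0.29 (0.00497) and H4c12 by 1.49 ± 0.27 (0.00633). H4c3 had 12.73, 11.23 and 12.60 in inguinal arrays and 10.10, 10.57, 10.80 and 10.56 in epididymal arrays, and the depots did not overlap. Among H2A genes, H2ac8 rose by 1.74 and H2ac10 by 1.61, and among H3 genes H3c6 rose by 1.66. Here 3 of 5 tested linker histones were positive and 1 was called higher, H1f5 by 1.06. Of 23 DNA replication genes, 14 were positive and 1 was called higher, Cdt1 by 1.35. B and T cell markers were positive in 7 of 8 and 8 of 8, with medians of 3.22 and 3.47, and 5 and 6 were called higher. Skeletal muscle markers were positive in 8 of 8, with a median of 5.705 and values from 1.098 to 10.69, and 1 was called higher. Ribosomal protein genes were positive in 54 of 61, with a median of 0.4975, and 4 were called higher. In the same depot contrast with WT and with Gipr-/- marrow, 5 and 4 of these 61 genes were positive. The part of these genes in the histone values was not tested. Cdt1 had 7.79, 6.53 and 7.68 in inguinal double-knockout arrays 1 to 3, so that array 2 was lowest, as it was for the lymphocyte markers, for the H4 mean and for H4c3. Array 2 was the lowest of the 3 for 6 of 11 H4 genes and the highest for 2. With array 2 as the only inguinal double-knockout array the median was 1.58. The count was 5 without inguinal array 1, 12 without inguinal array 2, and 11, 13 and 11 without epididymal arrays 1, 2 and 3.

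With WT marrow, 1 H4 gene was higher in inguinal than in epididymal fat. Limma called 1 of 48 higher, H4c14 at 1.13 ± 0.26 (SE, n = 4 each; adjusted p = 0.0292), where 1.03% of all genes were called higher. H4c14 had 10.76, 10.97, 11.09 and 10.52 in inguinal arrays and 9.48, 9.49, 10.45 and 9.40 in epididymal arrays, with epididymal array 3 closest to the inguinal range. It no longer passed without any 1 of inguinal WT arrays 1, 2 or 3 or epididymal WT arrays 1, 2 or 4, each of which left 0 genes called. The median was -0.23, against -0.07 over all genes tested, with H2B at -0.46, and the overall median was -0.459 without inguinal WT array 2 and -0.346 without epididymal WT array 2. H2bc14 and H2bc4 were lowest among genes whose depots did not overlap, at -1.18 and -1.03, and neither passed. With Gipr-/- marrow, limma called 0 of 48 genes, where 0.614% of all genes passed, and 5 had an unadjusted p under 0.05, as did 2190 of the 14502 genes. Its H4 median was -0.64 and its H3 median 0.32, against 0.02 over all genes tested.

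The difference between double-knockout and Gipr-/- marrow was itself compared between the depots, as inguinal minus epididymal. Limma called 7 of 48 genes higher, all H4, where 0.345% of all genes were called higher. H4c12 had a depot difference of 2.42 ± 0.38 (SE; adjusted p = 0.0114), H4c3 of 2.45 ± 0.42 (0.0163) and H4c6 of 2.67 ± 0.50 (0.0229). H4c12 had 12.28, 12.45 and 11.90 with double-knockout marrow and 10.38, 10.59 and 10.30 with Gipr-/- marrow in inguinal fat. In epididymal fat it had 10.80, 10.32, 10.87 and 10.90 with double-knockout marrow and 11.83, 10.65, 11.57 and 11.38 with Gipr-/- marrow. The groups were apart in the first depot and overlapped in the second. H4c18, H4c2, H4c1 and H4c11 were the other called genes, at 2.35, 1.38, 1.80 and 1.84. The H4 median was 1.80, with H2A at 1.06, H2B at 0.67 and H3 at 0.65, against -0.04 over all genes tested. In the same contrast 58 of 61 ribosomal protein genes were positive and 8 were called higher (median 1.23). All 8 tested B cell markers and all 8 tested T cell markers were positive and 0 were called, with medians of 4.19 and 3.69, and the part of these genes in the H4 values was not tested. The count was 3, 1, 1 and 3 without inguinal Gipr-/- arrays 1 and 2 and double-knockout arrays 1 and 3, and 4 without epididymal Gipr-/- array 1 or double-knockout array 2. For Gipr-/- minus WT marrow, limma called 0 of 48 depot differences (0% of all genes), 4 had an unadjusted p under 0.05, as did 1153 of the 14502 genes, and the median was 0.39 against 0.06 (0.207 without inguinal Gipr-/- array 3).

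H2ac1 and H2bc1, the H2A and H2B genes known for their expression in testis, stood apart in 1 epididymal array. H2ac1 had 6.29, 6.19, 5.91 and 6.18 with double-knockout marrow, 11.44, 6.52, 7.07 and 6.92 with Gipr-/- marrow, against 6.91, 6.51, 6.41 and 6.70 with WT marrow in epididymal fat. H2bc1 had 5.05, 5.02, 4.50 and 5.62 with double-knockout marrow, 12.54, 4.66, 5.48 and 6.00 with Gipr-/- marrow, against 6.18, 5.67, 5.05 and 5.08 with WT marrow. Both were high in Gipr-/- array 1 alone. The list of 15 testis germ cell markers had a mean of 5.74 in that array, against -0.60 to 1.07 in the other Gipr-/- arrays, with -0.78 to 1.24 in the double-knockout arrays and -0.70 to 2.61 in the WT arrays. Prm1, a protamine that packs sperm DNA, read 16.05 there and Ldhc, a sperm lactate dehydrogenase, 15.09. The testis list was raised to a lesser degree, 2.61, in epididymal WT array 2, where H2ac1 and H2bc1 were at 6.51 and 5.67. The groups did not differ by the test: Gipr-/- minus WT was 1.36 ± 0.84 for H2ac1 and 1.68 ± 1.32 for H2bc1 (SE; limma adjusted p = 0.787 and 0.847).

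The pair is transcribed in opposite directions from a gap of 280 bases (chr13:23934157-23934436, GRCm38.p6), which is shown because both genes were high in the same array. The 250 bases before H2ac1 on the plus strand (chr13:23934187-23934436) hold most of it, with capitals as above.
H2ac1: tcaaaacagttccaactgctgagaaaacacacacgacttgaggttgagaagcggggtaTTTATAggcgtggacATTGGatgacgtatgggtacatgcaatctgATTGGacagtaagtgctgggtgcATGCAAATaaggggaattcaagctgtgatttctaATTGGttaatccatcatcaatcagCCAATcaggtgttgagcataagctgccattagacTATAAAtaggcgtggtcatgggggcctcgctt
A TATAAA faces each gene, with 1 octamer and 4 CCAAT boxes between them. The one facing H2ac1 is at -32 from the H2ac1 start. The one facing H2bc1, read on the other strand, is at -192 from that same start. They are not placed symmetrically in the gap of 280 bases.

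**Figure D5:**
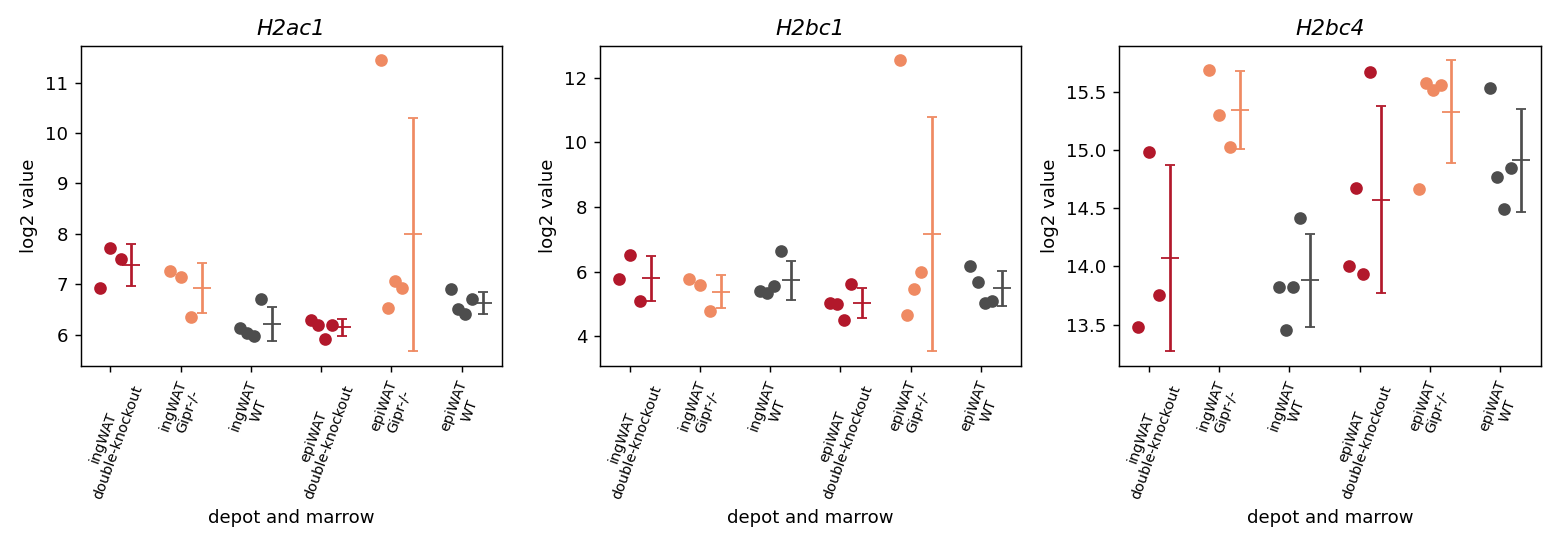
Log2 values of H2ac1, H2bc1 and H2bc4 in each array (points) with group mean and SD, by depot and marrow; the vertical axes differ and do not start at 0. Epididymal Gipr-/- array 1 reads 11.44 for H2ac1 and 12.54 for H2bc1, and H2bc4 is above 15 in all 3 inguinal Gipr-/- arrays.

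Pairs of H2A, H3 or H4 genes correlated more closely in inguinal than in epididymal fat, and pairs of H2B genes less closely. The median Pearson r between pairs of genes over the 10 inguinal arrays was 0.848 within H2A, 0.857 within H3, 0.843 within H4 and 0.445 within H2B. Over the 12 epididymal arrays it was 0.327, 0.576, 0.446 and 0.535 for the same types. Between types in inguinal fat it was highest for H2A with H3, at 0.87, and lowest for H2B with H4, at 0.239. Outside the histone families, the genes whose pattern was most like the family mean in inguinal fat were Otulin, a deubiquitinase gene (r = 0.946), Rpl19, a ribosomal protein gene (0.939), Serbp1 (0.923), Pcbp1 (0.918) and Cdc42se1 (0.916). Rpl32, also a ribosomal protein gene, reached 0.916. In epididymal fat they were Hsd3b3, a steroid dehydrogenase gene (0.94), Tmem165 (0.908), Gins1, a DNA replication gene (0.907), and Serpina1d (0.904). Next came Mug1 (0.896), Alb, the serum albumin gene (0.895), Ccnyl1 (0.89), Cps1 (0.881), Apoh (0.881) and Ces1c (0.876). What this likeness reflects was not tested. Alb ranged from 9.46 to 17.11 over the 12 epididymal arrays. These r values were picked as the highest of 14448 genes and describe the arrays, which share their groups.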

How the data were processed

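The authors deposited 1 table of log2 values for 21793 features on 22 arrays, made from 100 ng of total RNA per the labels' protocols. Values run from 1.92 to 19.9. Partek 6.6 is named in the submitters' processing notes, and its role, the base of the log and the normalization are not given in the sources used here, so every log2 difference rests on reading the base as 2. Arrays carry no read depth, and their number limits the precision.

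A platform annotation named 19341 features, and the higher feature was kept where a gene had several. Each depot was fitted apart with limma 3.58.1 in R 4.3.3 (lmFit, eBayes with a trend) on all genes outside the lowest 25% by mean, and differences between depots came from 1 fit of all 22 arrays. Benjamini-Hochberg adjustment ran over all genes tested, two-sided, at 0.05. The code was tested on simulated data. Array numbers follow accession order and pair nothing. Genes were named by size of difference, smallest p, highest signal per type, and likeness to the family mean, with H2ac1 and H2bc1 always named. The members and the 15 gene lists were chosen with earlier results of these data known. Alternatives were no filter, 1 fit for all arrays, array weights, quantile normalization, median centring, no trend, all features, and each array left out. Promoters are RefSeq sequences on GRCm38.p6.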

Additional observations from a re-analysis of the deposited data

Results flagged for a closer look

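Of 196 groups of 4 arrays (each of the 49 genes in 4 groups), 15 held an array whose gap to the nearest other exceeded Dixon's critical share of the group's range, a size that chance gives in about 1 in 20 groups. The testis genes H2ac1 (11.44) and H2bc1 (12.54) were high in epididymal Gipr-/- array 1, and H2bc4 (14.67) was low in the same array. In epididymal double-knockout array 4, H2ac6 (7.736), H2bc11 (9.295) and H3c8 (7.268) stood apart. In epididymal Gipr-/- array 3 H2bc3 did (7.604), and in epididymal WT arrays H2bc9 (8.538, array 1), H2bc21 (6.252, array 2), H3c3 (8.25, array 2), H4c8 (9.807, array 2) and H4c14 (10.45, array 3). In inguinal WT arrays, H3c10 (10.22) and H3c11 (10.06) stood apart in array 2 and H2bc23 (5.665) in array 1.

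The difference between double-knockout and Gipr-/- marrow was larger in inguinal than in epididymal fat for 7 H4 genes, by the test of the difference itself: H4c6 (2.67), H4c3 (2.45), H4c12 (2.42), H4c18 (2.35), H4c11 (1.84), H4c1 (1.8) and H4c2 (1.38), as log2 depot differences.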

How the results depend on the processing

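No paired analysis was run. Each sample title carries its own TF number, which the labels do not explain, and no such number occurs in both depots. Medians changed sign in 2 comparisons with no call: Gipr-/- minus WT in epididymal fat (0.0091, against -0.0131 with array weights and -0.0149 with array medians subtracted), and inguinal minus epididymal fat with Gipr-/- marrow (0.13, against -0.122 with the lymphocyte covariate). For double-knockout minus WT marrow in inguinal fat, where 0 genes were called, the count was 19 with all 22 arrays in 1 fit, 15 with array weights and 1 with all features. Array weights also gave 5 for Gipr-/- minus WT in inguinal fat, and 2 each for inguinal minus epididymal fat with WT and with Gipr-/- marrow. Chosen after seeing the data, leaving out both double-knockout arrays with high lymphocyte markers gave counts of 2 (Gipr-/- minus WT, inguinal), 0 (double-knockout minus Gipr-/-, inguinal) and 1 (its depot difference), with medians of 1.49 (double-knockout minus Gipr-/-), 1.81 (double-knockout minus WT), 1.58 (inguinal minus epididymal fat, double-knockout) and 1.48 (depot difference). A lymphocyte marker covariate, also chosen after seeing the data, gave counts of 3, 0 and 2 and medians of 1.44, 1.7, 1.56 and 1.65 for the same results. Within groups, marker scores spread most among inguinal double-knockout arrays (SD 2.66 for B and 2.79 for T cell markers). The largest SD in another group was 0.83 for B and 0.41 for T cell markers. The covariate medians thus lean on double-knockout array 2, as do the medians before them, and are not a separate check. These settings leave fewer arrays or add a term to the fit, and why their counts differ from the main ones was not tested. Leaving out 1 array at a time, counts in inguinal fat ranged from 0 to 5 (Gipr-/- minus WT), 3 to 12 (double-knockout minus Gipr-/-) and 0 to 9 (double-knockout minus WT). Between depots they ranged from 0 to 1 (WT), 0 to 0 (Gipr-/-) and 5 to 26 (double-knockout), and for depot differences from 0 to 0 and 1 to 7. Medians ranged from 0.185 to 0.554, 0.513 to 1.05 and 1.02 to 1.41 in inguinal fat, from -0.459 to -0.156, 0.00432 to 0.227 and 0.801 to 1.27 between depots, and from 0.207 to 0.585 and 0.755 to 1.24 for depot differences, in the same order. In epididymal fat no gene was called without any 1 array, and the medians ranged from -0.09 to 0.126 (Gipr-/- minus WT, which changed sign in 3 of 12), -0.225 to -0.021 (double-knockout minus Gipr-/-) and -0.299 to -0.0102 (double-knockout minus WT). Groups of 3 or 4 arrays and shared probe sequence among histone genes limit calls on single genes. Counts under alternative settings, here and above, come without the share of all genes called under the same setting. They show how far the calls moved and not whether a setting favoured histone genes.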
